A study of Mus musculus with 8 samples.

Results

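The Agilent mouse array used in this series carries 2408 probes designed on transcripts with an AK accession, out of 55681 probes in all (4.32%). These are the members described here. They were chosen as the non-control probes whose accession in the scanner files is AK followed by digits and whose description does not name a lincRNA, and no AK probe had such a description. AK accessions of this kind belong to mouse cDNA clones sequenced from end to end. The descriptions bear the name out, since 2391 of the 2408 name a full-length enriched library and 2376 name a full insert sequence. The 2408 probes represent 2366 accessions, 40 of which have more than 1 probe. The clones came from 144 named libraries, the largest being adult male testis with 417 probes. The descriptions call 1193 products unclassifiable and 803 hypothetical proteins, while 395 carry a protein name or a similarity to one and 17 give no product.

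RNA was measured on 8 one-colour arrays of NIH3T3 cells, an established line of mouse embryonic fibroblasts. All cells were starved for 24 h in 0.5% serum. The 3 serum arrays came from cells given 0.1% DMSO for 90 min and stimulated with serum for the last 30 min, and the 3 cordycepin arrays from cells given 20 µM cordycepin in the same vehicle and the same serum. The 2 arrays without serum came from starved cells with vehicle only. No array of cordycepin without serum was analysed here, so an effect of cordycepin is always one on serum-stimulated cells. Signals are log2 values of the processed signal minus the 75th percentile of their array, so 0 marks that percentile, and a shift common to nearly all transcripts leaves no trace in them. A change is a difference of group means on this log2 scale. Values of different probes are not compared as levels.

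Cordycepin, or 3′-deoxyadenosine, is a nucleoside that lacks the hydroxyl from which a growing RNA chain is extended. Its triphosphate can end RNA chains, and poly(A) tails are a known place for this. Full-length cDNA collections hold messenger RNAs along with many transcripts that code for no known protein. Among these are RNAs from the opposite strand of a gene and RNAs that lie beyond the 3′ end of a gene. Many such RNAs are retained in the nucleus and are short-lived, and the nuclear exosome is known to degrade them. Serum stimulation of starved fibroblasts switches on immediate early genes within minutes, through ERK signalling and serum response factor. The arrays were labelled with a kit that primes on poly(A), so the amount of an RNA and the state of its tail cannot be told apart. Fewer cells and less RNA per cell cannot be told apart either.

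Each member was placed by its coordinates, on the mouse build mm9 that the files use, against the probes of RefSeq mRNAs (NM_ probes) within 50 kb. A member that carries the gene symbol of an NM_ probe was kept as a class of its own (448 members). The remainder were classed by the nearest NM_ probe. It lay on the same strand, with the member downstream of it, for 236 members, and on the same strand with the member upstream for 268. The nearest NM_ probe was on the opposite strand for 678 members, no NM_ probe lay within 50 kb of 771, and 7 could not be placed. Distances are between probe midpoints, so they locate a member against the measured part of a gene and not against its ends. Strands in the files could be compared with RefSeq for 19367 NM_ probes and matched for 97.6%.

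The 60-base probes of the members on which the results below turn are printed here, 5′ to 3′ in the sense of the cDNA, with mm9 coordinates of the probe. Capitals mark AATAAA and ATTAAA, the common poly(A) signal hexamers. They occur in 19.7% of the members' probes, in 17.4% of NM_ probes, in 6.27% of lincRNA probes and in 13.7% of all probes, and their reverse complements in 8.01% of the members' probes. Hexamers in a 60-base window say nothing of where a transcript ends. The first 5 probes lie downstream of a gene on its own strand and rose with cordycepin, the last 2 of these downstream of the same gene, Acbd3.
5930422O12Rik (AK031179, chr8:34542412-34542471, plus strand): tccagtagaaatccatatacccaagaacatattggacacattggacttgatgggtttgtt
A030005L19Rik (AK020696, chr1:82910557-82910616, plus strand): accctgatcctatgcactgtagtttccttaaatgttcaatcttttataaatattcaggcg
4732460I02Rik (AK084197, chrX:54630139-54630198, minus strand): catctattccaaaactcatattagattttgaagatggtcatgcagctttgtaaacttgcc
5830405M20Rik (AK017899, chr1:182688960-182689019, plus strand): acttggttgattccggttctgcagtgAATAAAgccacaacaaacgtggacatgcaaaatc
2900024J01Rik (AK013590, chr1:182708974-182709033, plus strand): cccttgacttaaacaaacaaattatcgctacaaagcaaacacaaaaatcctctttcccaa

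The next 4 lie opposite to a gene, and downstream of another gene on their own strand, and rose with cordycepin.
Gm12472 (AK140252, chr4:43602879-43602938, plus strand): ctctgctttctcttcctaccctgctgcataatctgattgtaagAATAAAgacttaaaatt
B130024M06Rik (AK045073, chr19:41996816-41996875, plus strand): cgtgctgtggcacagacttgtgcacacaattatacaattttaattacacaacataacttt
4632433K11Rik (AK014606, chr7:4988085-4988144, plus strand): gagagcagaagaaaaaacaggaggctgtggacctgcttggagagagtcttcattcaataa
5330439K02Rik (AK019939, chr15:100290181-100290240, minus strand): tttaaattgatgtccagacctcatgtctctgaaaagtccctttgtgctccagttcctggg

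The next 5 were lower with cordycepin, and the pair of the same symbol shows 2 clones of 1 locus.
Gm10387 (AK134871, chr11:79545184-79545243, plus strand): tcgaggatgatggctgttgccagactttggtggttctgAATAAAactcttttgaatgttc
C130033p17rik (AK048087, chr4:63689718-63689777, minus strand): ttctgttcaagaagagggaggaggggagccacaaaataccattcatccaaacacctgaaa
1110006E14Rik (AK141773, chr12:110836685-110836744, plus strand): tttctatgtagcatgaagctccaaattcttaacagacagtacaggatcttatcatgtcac
1110006E14Rik (AK003491, chr12:110834811-110834870, plus strand): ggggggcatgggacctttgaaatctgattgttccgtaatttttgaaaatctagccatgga
C230096K16Rik (AK049070, chr5:65196915-65196974, plus strand): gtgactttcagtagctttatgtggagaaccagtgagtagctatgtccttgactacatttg

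The last 4 rose with serum, Gm17501 and 4930447I22Rik beside the serum response genes Cyr61 and Ier2.
E330037I15Rik (AK087890, chr10:89206364-89206423, minus strand): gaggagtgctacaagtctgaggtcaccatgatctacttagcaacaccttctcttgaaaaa
Ptchd4 (AK014270, chr17:42454277-42454336, plus strand): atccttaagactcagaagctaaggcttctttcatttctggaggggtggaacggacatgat
Gm17501 (AK040843, chr3:145314998-145315057, plus strand): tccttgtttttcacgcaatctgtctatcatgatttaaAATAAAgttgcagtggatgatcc
4930447I22Rik (AK015406, chr8:87187168-87187227, minus strand): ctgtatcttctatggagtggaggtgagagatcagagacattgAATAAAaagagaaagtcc

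On each array 41.0 to 49.9% of the members were well above background, against 51.1 to 57.1% of all probes, and no spot was saturated. The test took probes that passed background throughout at least 1 of the 3 groups, which were 1153 of the 2408 members and 30859 probes in all. The other 1255 members have no test. Members were dim, with 20.7% of those tested above the median signal of all tested probes. All 12 fibroblast markers were well above background on all 8 arrays. Among markers of other cell types, 3 of 5 epithelial, 2 of 4 endothelial, 1 of 5 blood and 2 of 4 muscle markers were not above background on any array, while each of 4 neural markers was on at least 1. Well above background on all 8 arrays were 0 of 5 epithelial, 2 of 4 endothelial (Kdr and Pecam1) and 2 of 5 blood markers (Cd68 and Cd3e). So were 1 of 4 muscle (Acta1) and 2 of 4 neural markers (Snap25 and Syp). Of all markers tested, only Cd68, a lysosomal protein used as a macrophage marker, was called, with a log2 change of 3.04 ± 0.21 (SE, limma adjusted p = 5.17e-05) with cordycepin. Ptprc, which defines blood cells, was above background on 3 of 8 arrays and was not tested. The part of other cells in the results was not tested.

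What cordycepin changes in serum-stimulated cells was asked by setting the cordycepin arrays against the serum arrays. Members both rose and fell. Of the 1153 tested, 175 were called higher with cordycepin (15.2%) and 84 lower (7.29%). Over all probes tested the same rule called 7.63% higher and 2.87% lower. NM_ probes were called higher in 3.54% and lower in 2.45%, lincRNA probes in 17.9% and 3.79%, and probes of NR_ non-coding RNAs in 11.1% and 3.23%. A call needed an adjusted p under 0.05 in limma, over all probes tested, and a log2 change of at least 1. The median change was 0.06 over the members and 0.10 over all probes. The quartiles of the members were at -0.40 and 0.54, and those of all probes at -0.14 and 0.28.

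The rises and the drops sat at different signals. Of the 914 members below the median signal of all tested probes, 168 were higher and 53 lower, and of the 239 members above it, 7 were higher and 31 lower. All probes had shares of 14.1% higher and 3.38% lower below that median and 1.14% and 2.37% above it. Among the 175 members called higher, 44 were not above background on any serum array and another 44 on only some. Those members entered the test through the cordycepin arrays, on which they are high, or through the arrays without serum. The remaining 87 were well above background on all 6 arrays. When only probes well above background on all 8 arrays were tested, 85 members were higher, and 4.16% of all such probes were. With normexp background correction, 68 members were higher and 28 lower, and with centring on spike-in probes 95 and 28. The shares of all probes were 2.98% and 1.30% with normexp and 4.84% and 1.27% with spike-in centring. Rises made up 67.6% of the members' calls, against 53.7% with quantile normalisation and 77.2% with spike-in centring.

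Where a member lay against the nearest gene went with the direction of its change. Members downstream of an NM_ probe on the same strand were called higher in 40 of 136 (29.4%) and lower in 8 of 136 (5.88%), with a median log2 change of 0.35. Members on the opposite strand followed, with 75 of 314 (23.9%) higher and 5 of 314 (1.59%) lower and a median of 0.32. Upstream of an NM_ probe on the same strand the order turned, with 15 of 162 (9.26%) higher, 22 of 162 (13.6%) lower and a median of -0.26. Members with no NM_ probe within 50 kb were higher in 23 of 279 (8.24%) and lower in 29 of 279 (10.4%). Those that carry the symbol of an NM_ probe were higher in 22 of 260 (8.46%) and lower in 20 of 260 (7.69%). Beside 7.63% higher and 2.87% lower over all probes, the downstream and opposite classes had the larger shares of rises. The upstream class and the class without a neighbour had the larger shares of drops. The rises of the downstream and opposite classes were mostly of dim members. Below the median signal of all tested probes, 37 of 102 downstream members (36.3%) and 74 of 266 opposite members (27.8%) were higher. Of upstream members there 11.3% were higher, and of all probes 14.1%. Above that median, 3 of 34 downstream members were higher and 5 lower, and 1 of 48 opposite members was higher and 2 lower. Of all probes above it 1.14% were higher. These shares are a description, and the difference between classes was not tested.

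**Figure D1:**
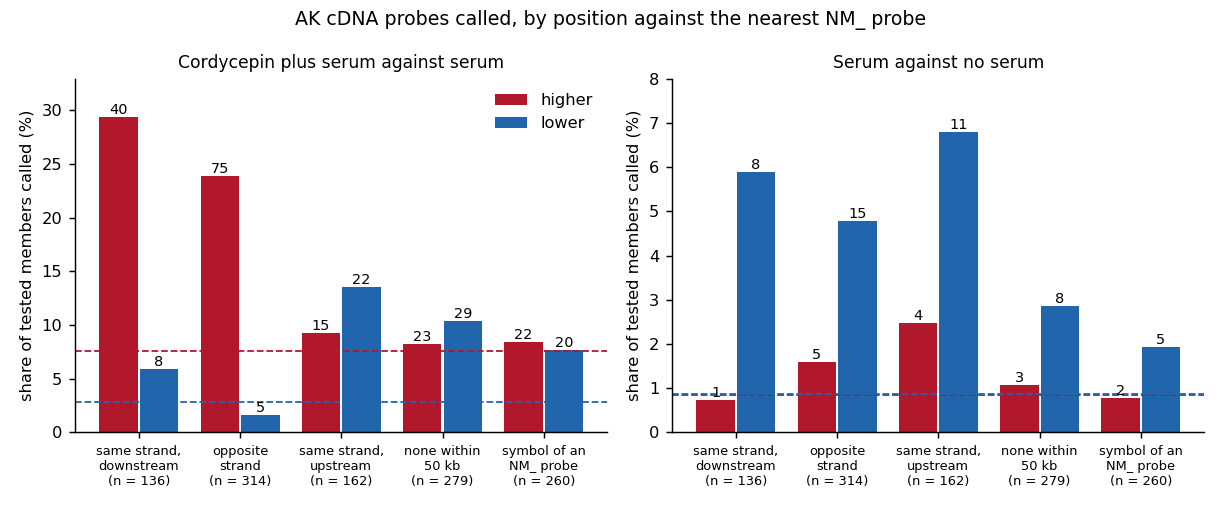
Share of tested AK cDNA probes called higher (red) or lower (blue), in percent, by position against the nearest NM_ probe, with cordycepin (left) and with serum (right). Numbers on the bars are members called, n is members tested, and dashed lines are the shares of all 30859 probes tested. With cordycepin 40 of 136 downstream members and 75 of 314 opposite members were higher.

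The downstream class had the largest share of rises under each of 3 other ways of preparing the values, and the opposite class the next largest. With normexp background correction 16.2% of downstream members and 8.92% of opposite members were higher, against 1.23% of upstream members and 3.58% of those without a neighbour. The share of all probes was then 2.98%. Over members well above background on all 8 arrays, an alternative added after the data were seen, the shares were 17.2%, 15.8%, 3.73% and 7.14% in the same order. Of all such probes 4.16% were higher. With quantile normalisation the shares of these classes were 26.5%, 19.7%, 7.41% and 6.81%, beside 6.32% of all probes. A run of 16 bases shared with a probe of another locus was found in 443 of the 2399 placed members, on either strand. Without such members 34 downstream members were higher (31.8%) and 65 opposite members (26.2%).

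In the downstream and opposite classes, rises were most frequent within 10 kb of the neighbouring probe. Downstream on the same strand, 11 of 29 (37.9%) members within 5 kb were higher and 15 of 38 (39.5%) between 5 and 10 kb, against 7 of 27 (25.9%) between 10 and 20 kb and 7 of 42 (16.7%) beyond 20 kb. Medians over these bins were 0.68, 0.71, 0.24 and -0.03 on the log2 scale. On the opposite strand the shares were 28.7%, 30.3%, 17.4% and 19.6% over the same bins. Opposite members toward the 5′ side of the gene's probe and those beyond its 3′ side had like shares, at 47 of 195 (24.1%) and 28 of 119 (23.5%). Upstream on the same strand the shares of rises were 10.0%, 4.55%, 11.4% and 9.41% over these bins. There 2 of 20 members within 5 kb were lower and 0 of 22 between 5 and 10 kb. At 10 to 20 kb 7 of 35 were lower, and beyond 20 kb 13 of 85. The bins were chosen with the data known. Probes of lincRNAs showed 542 of 1753 (30.9%) higher downstream, 311 of 2055 (15.1%) opposite and 95 of 837 (11.4%) upstream, so the downstream share is not one of AK probes alone.

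**Figure D2:**
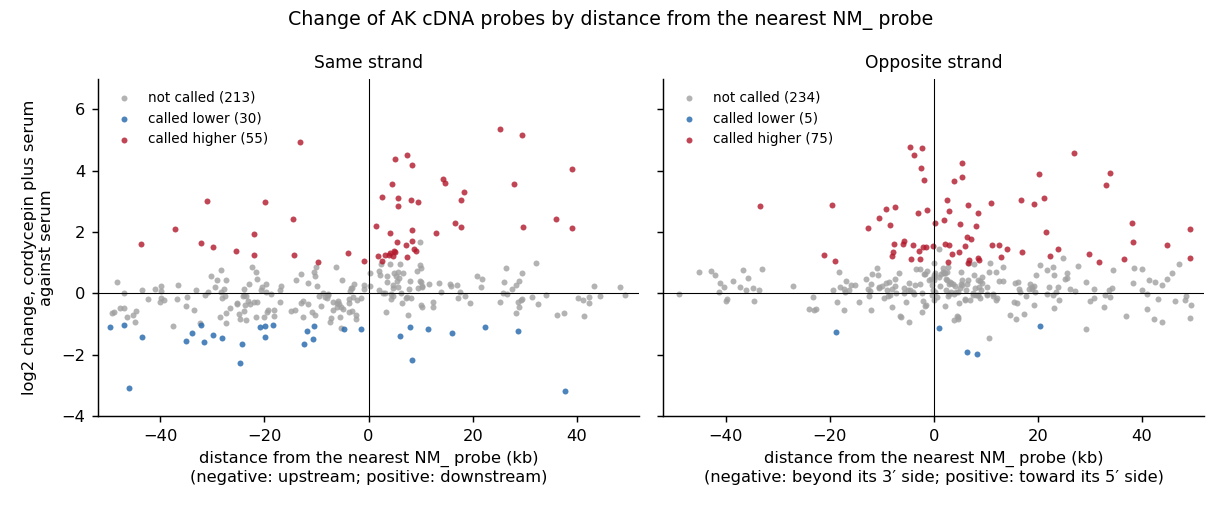
Log2 change of each tested AK cDNA probe with cordycepin (y axis) against its distance from the nearest NM_ probe in kb (x axis), for members on the same strand (left) and on the opposite strand (right). Red points were called higher, blue lower and grey not called. On the same strand rises gather just downstream of 0, with 26 of 67 members higher within 10 kb, and drops lie mostly upstream.

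The largest rise among members measured above background on every array was that of 5930422O12Rik, from embryonic forelimb, which lies 14.6 kb downstream of the probe of Purg, a purine-rich element binding protein. Its signal was -3.67, -3.84 and -3.57 on the serum arrays, 0.48, -0.39 and -0.41 on the cordycepin arrays and -2.82 and -2.79 without serum. The cordycepin arrays stood far above all others. The change was 3.58 ± 0.23 (SE, limma adjusted p = 3.91e-05), while Purg itself changed by 0.10 (limma adjusted p = 0.649). A030005L19Rik, 17.8 kb downstream of Agfg1, an ArfGAP with FG repeats, had -3.77, -4.44 and -4.22 on the serum arrays, -1.10, -1.05 and -1.17 on the cordycepin arrays and -3.12 and -3.50 without serum. It rose by 3.04 ± 0.18 (SE, limma adjusted p = 2.76e-05) and Agfg1 changed the other way, by -0.68 (limma adjusted p = 0.00288). A second accession downstream of Agfg1, A030014E15Rik, was also called higher. 4732460I02Rik lies 9.41 kb downstream of Rbmx, an RNA-binding protein of the hnRNP family, and had -2.06, -2.67 and -2.12 on the serum arrays, 0.88, 0.55 and 0.69 on the cordycepin arrays and -1.51 and -1.54 without serum. Its change was 2.99 ± 0.18 (SE, limma adjusted p = 2.54e-05), and that of Rbmx was -0.32 (limma adjusted p = 0.294).

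The downstream region of Acbd3, a Golgi protein that binds acyl-CoA, held 2 members on the plus strand. 5830405M20Rik, 5.16 kb downstream, had -6.61, -7.02 and -5.82 on the serum arrays, -1.77, -1.98 and -2.53 on the cordycepin arrays and -5.99 and -5.88 without serum. 2900024J01Rik, 25.2 kb downstream, had -6.71, -6.63 and -7.15 on the serum arrays, -1.05, -1.56 and -1.80 on the cordycepin arrays and -5.74 and -6.44 without serum. Neither was above background on any serum array, and both were on all 3 cordycepin arrays. Without serum, 2900024J01Rik was above background on 1 array and 5830405M20Rik on none. The rises are therefore bounds, at least 10.66-fold for 5830405M20Rik and at least 16.4-fold for 2900024J01Rik, with limma adjusted p = 5.17e-05 and 1.15e-05. Acbd3 itself changed by -0.50 (limma adjusted p = 0.0270). A bound is the mean of the bright group against the dim group at the lowest signal that counted as well above background, or at the probe's own value where that was higher.

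Both of the other members ranked by their bound were in other position classes, Hapln3 through its symbol. Hapln3, a link protein of hyaluronan and proteoglycans, is the symbol of an AK probe (AK136956, chr7:86260030-86260089, minus strand) with -7.89, -6.33 and -6.66 on the serum arrays, -0.46, -1.07 and -1.47 on the cordycepin arrays and -7.98 and -7.62 without serum. It rose at least 22.7-fold (limma adjusted p = 4.89e-05). The member lies 2.01 kb downstream of the NM_ probe of the same symbol, which changed by 0.28 (limma adjusted p = 0.236). C030044M21Rik (chr7:16732676-16732735, plus strand), upstream of the sodium-calcium exchanger gene Slc8a2, had -6.45, -7.14 and -7.32 on the serum arrays, -1.66, -2.02 and -2.42 on the cordycepin arrays and -7.93 and -6.49 without serum. Its rise was at least 11.1-fold (limma adjusted p = 8.48e-05). In both, the serum arrays and those without serum were all below background and the 3 cordycepin arrays above it.

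Members on the opposite strand made up 5 of the 10 largest rises. The nearest NM_ probe set this class, and all 5 also lay downstream of a tested NM_ probe on their own strand. Those were Rgp1 (7.04 kb) for Gm12472, Pgam1 (3.92 kb) for B130024M06Rik and Zfp865 (3.40 kb) for 4632433K11Rik. For 5330439K02Rik and 2310007J06Rik they were Csrnp2 (20.3 kb) and Tmem55b (40.1 kb). The opposite genes Gba2, Letmd1 and Apex1 were 23.1, 19.3 and 38.1 kb away. Gm12472, opposite to the glucosylceramidase gene Gba2 with Msmp as its nearest NM_ probe, had -3.31, -3.32 and -2.97 on the serum arrays, -0.11, -0.33 and -0.48 on the cordycepin arrays and -3.27 and -3.62 without serum. The change was 2.89 ± 0.16 (SE, limma adjusted p = 2.02e-05) and that of Gba2 was -0.15 (limma adjusted p = 0.398). B130024M06Rik lies 1.27 kb beyond the 3′ side of the probe of Exosc1, a subunit of the RNA exosome, and on the strand of Pgam1, a glycolytic enzyme, 3.92 kb away. It had -3.69, -4.27 and -4.20 on the serum arrays, -1.06, -1.42 and -1.55 on the cordycepin arrays and -4.76 and -4.90 without serum. With cordycepin it rose by 2.71 ± 0.19 (SE, limma adjusted p = 5.17e-05), and Exosc1 and Pgam1 changed by 0.03 (limma adjusted p = 0.881) and 0.14 (limma adjusted p = 0.564). 4632433K11Rik, opposite to the zinc finger gene Zfp784 and downstream of Zfp865 on the same strand, had -1.92, -1.71 and -1.75 on the serum arrays, 0.56, 0.74 and 0.50 on the cordycepin arrays and -1.76 and -1.86 without serum. Its change of 2.40 ± 0.11 (SE, limma adjusted p = 1.15e-05) was larger than the spread within any group. 5330439K02Rik, opposite to Letmd1, rose by 2.91 ± 0.26 (SE, limma adjusted p = 1.35e-04), and 2310007J06Rik (chr14:51508391-51508450, minus strand), opposite to the DNA repair gene Apex1, by 2.29 ± 0.14 (SE, limma adjusted p = 2.71e-05).

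The other 2 were LOC100048452 (chr9:72116421-72116478, minus strand), with no NM_ probe within 50 kb, which rose by 3.53 ± 0.20 (SE, limma adjusted p = 2.21e-05), and 6430531B16Rik (chr7:147161509-147161568, minus strand), which rose by 3.12 ± 0.31 (SE, limma adjusted p = 2.68e-04). An NM_ probe of the same symbol as 6430531B16Rik, 3.31 kb downstream, changed by 0.42 (limma adjusted p = 0.0774). The probe of 6430531B16Rik shares 16-base runs with 3 probes of other loci in the same sense and with 4 in the reverse, and what other transcripts add to its signal was not tested. All 10 rises kept their call under each of 20 alternatives of processing and left-out arrays, with changes between 1.34 and 3.93.

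**Figure D3:**
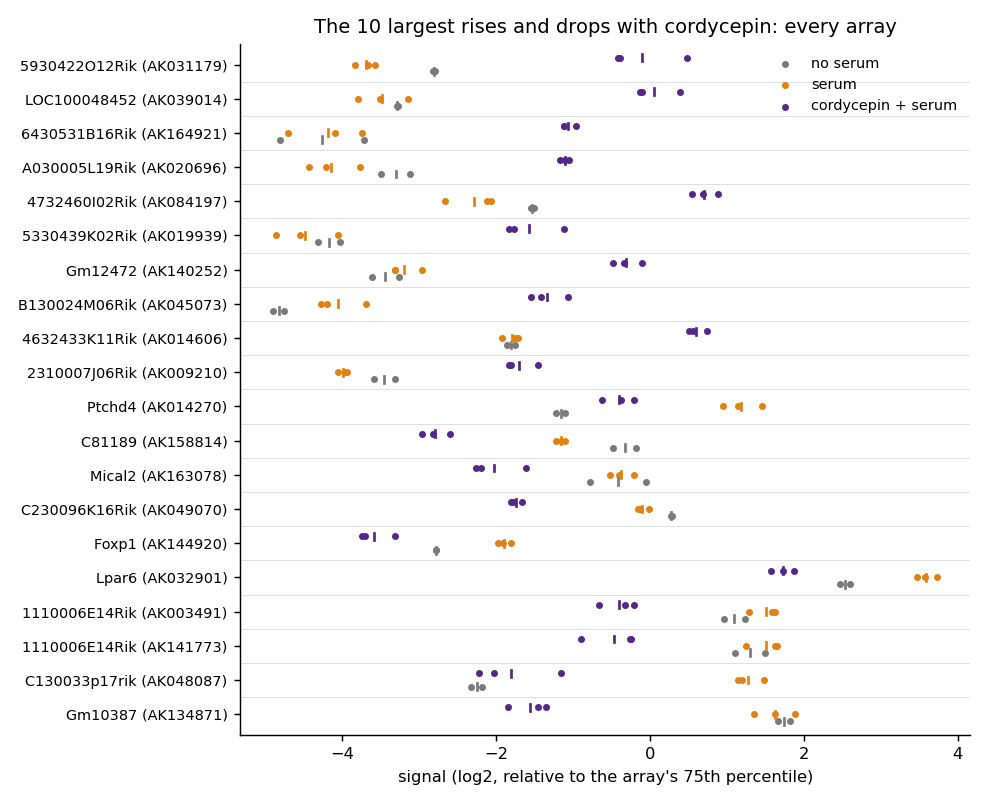
Signal on each array (log2 relative to the 75th percentile of the array) for the 10 AK cDNA probes with the largest rises and the 10 with the largest drops with cordycepin among those above background on every array compared. Points are arrays and ticks are group means. By the rule of choice the cordycepin arrays (purple) do not overlap the serum arrays (orange) in any row.

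Drops had a median size of 1.29 on the log2 scale and rises one of 1.72. Gm10387, 37.7 kb downstream of Rab11fip4, an effector of the GTPase Rab11, had 1.63, 1.89 and 1.35 on the serum arrays, -1.35, -1.85 and -1.46 on the cordycepin arrays and 1.66 and 1.82 without serum. It fell by 3.18 ± 0.18 (SE, limma adjusted p = 2.21e-05) on the log2 scale, and Rab11fip4 changed by 0.06 (limma adjusted p = 0.854). C130033p17rik, 46.0 kb upstream of tenascin C (Tnc), an extracellular matrix protein, had 1.48, 1.19 and 1.15 on the serum arrays, -1.16, -2.03 and -2.23 on the cordycepin arrays and -2.18 and -2.32 without serum. It was high with serum alone and low both with cordycepin and without serum. Its change with cordycepin was -3.08 ± 0.26 (SE, limma adjusted p = 1.15e-04) and that with serum 3.52 ± 0.29 (SE, limma adjusted p = 0.00107). Tnc moved the same way, by -1.53 (limma adjusted p = 3.00e-04) with cordycepin and 1.11 (limma adjusted p = 0.0185) with serum. The probe of C130033p17rik shares a 16-base run with 1 probe of another locus on the reverse strand.

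Both clones of 1110006E14Rik fell. They lie opposite to Rtl1, an imprinted gene derived from a retrotransposon. AK141773 had 1.65, 1.25 and 1.62 on the serum arrays, -0.89, -0.26 and -0.25 on the cordycepin arrays and 1.50 and 1.10 without serum, and AK003491 had 1.59, 1.29 and 1.62 on the serum arrays, -0.66, -0.32 and -0.21 on the cordycepin arrays and 1.24 and 0.96 without serum. The arrays with and without serum overlapped in AK141773, and the 3 cordycepin arrays lay below them in both clones. The changes were -1.98 ± 0.21 (SE, limma adjusted p = 3.76e-04) and -1.90 ± 0.16 (SE, limma adjusted p = 1.16e-04). C230096K16Rik, 24.4 kb upstream of Klf3, a Krüppel-like repressor, had -0.16, -0.02 and -0.13 on the serum arrays, -1.66, -1.78 and -1.80 on the cordycepin arrays and 0.29 and 0.27 without serum. It changed by -1.64 ± 0.10 (SE, limma adjusted p = 2.85e-05) and Klf3 by -0.87 (limma adjusted p = 0.00162).

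Several of the 10 largest drops were clones of named coding genes. The AK probe of Lpar6 (chr14:73639469-73639528, plus strand), a lysophosphatidic acid receptor, had 3.74, 3.47 and 3.57 on the serum arrays, 1.58, 1.88 and 1.73 on the cordycepin arrays and 2.47 and 2.60 without serum. The change was -1.86 ± 0.12 (SE, limma adjusted p = 4.33e-05), and the NM_ probe of Lpar6, whose midpoint is 0.033 kb away, gave -1.87 (limma adjusted p = 5.11e-05), and the difference between them was 0.00 ± 0.14 (SE, limma adjusted p = 0.987). The AK probe of Foxp1 (chr6:98956679-98956738, minus strand), a forkhead transcription factor, changed by -1.69 ± 0.14 (SE, limma adjusted p = 9.29e-05), and that of Mical2 (chr7:119491581-119491640, plus strand), an actin-oxidising monooxygenase, by -1.64 ± 0.24 (SE, limma adjusted p = 0.00176). The NM_ probe of Mical2 changed by -0.34 (limma adjusted p = 0.568). C81189 (chr10:95022409-95022468, minus strand), upstream of Nudt4 and opposite to Ube2n, changed by -1.64 ± 0.13 (SE, limma adjusted p = 9.80e-05). Ptchd4, a patched-domain protein, changed by -1.59 ± 0.16 (SE, limma adjusted p = 3.02e-04). Its probe shares a 16-base run with 1 probe of another locus in the same sense. Of the 10 drops, 8 kept their call under each of 20 alternatives, while C81189 and Foxp1 lost it with normexp background correction, at -0.96 and -0.90.

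For 4 members ranked by a bound, no cordycepin array was above background. The bounds were at least 2.04-fold lower for 4930432N10Rik (chr17:15346293-15346352, plus strand), at least 1.86-fold lower for Gm3081 (chr9:100778745-100778804, plus strand), at least 1.86-fold lower for an AK probe of Hif1a (chr12:75033965-75034024, plus strand) and at least 1.55-fold lower for one of Ap4e1 (chr2:126870487-126870546, plus strand). The limma adjusted p-values were 0.00299, 0.00863, 0.0113 and 0.0193. The NM_ probe of Hif1a, the hypoxia-inducible factor subunit, changed by -0.03 (limma adjusted p = 0.921). None of these 4 kept its call in all of 19 alternatives, and with normexp background correction their changes were between -0.03 and -0.12. Ap4e1 was also not called without cordycepin replicate 1 (-1.12), without cordycepin replicate 2 (-0.92) or without serum replicate 3 (-1.05).

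Whether a member changed as its neighbour did was asked by pairing each tested member with the nearest tested NM_ probe within 50 kb, on the same and on the opposite strand, and testing the difference of the 2 changes in limma. In 319 pairs with the member downstream, 91 members were higher, of which 85 had a neighbour that was not called, 3 one called higher and 3 one called lower. In 486 opposite-strand pairs the counts were 99, 94, 2 and 3. In 311 pairs with the member upstream, 33 members were lower, of which 28 had a neighbour that was not called, 4 one called lower and 1 one called higher. Few neighbours were called in any class, 6 higher and 7 lower of 319 downstream, 5 and 11 of 311 upstream and 11 and 14 of 486 opposite, so most members have an uncalled neighbour whether they rose or not. A member counts once on each strand, and pairs can share a neighbour.

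The change of the member exceeded that of the NM_ probe by at least 1 in 94 of 319 downstream pairs (29.5%), 30 of 311 upstream pairs (9.65%) and 111 of 486 opposite pairs (22.8%), at an adjusted p under 0.05. Over all tested probes without an NM_ accession this held for 21.8% of 5816 same-strand pairs and 18.8% of 4751 opposite-strand pairs. It fell short by as much in 12, 28 and 24 pairs (3.76%, 9.0% and 4.94%), against 4.61% and 4.84% over all pairs. These same-strand shares of all pairs hold both positions together, and the members' own over both were 124 of 630 more positive (19.7%) and 40 more negative (6.35%), against the 21.8% and 4.61% of all pairs. Pearson's r between the changes was 0.02 over the downstream pairs, 0.21 over the upstream pairs and 0.02 over the opposite pairs. Pairs share arrays and some share a neighbour. In the 174 same-strand pairs in which member and NM_ probe carry the same symbol, 17 members were more positive and 10 more negative.

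**Figure D4:**
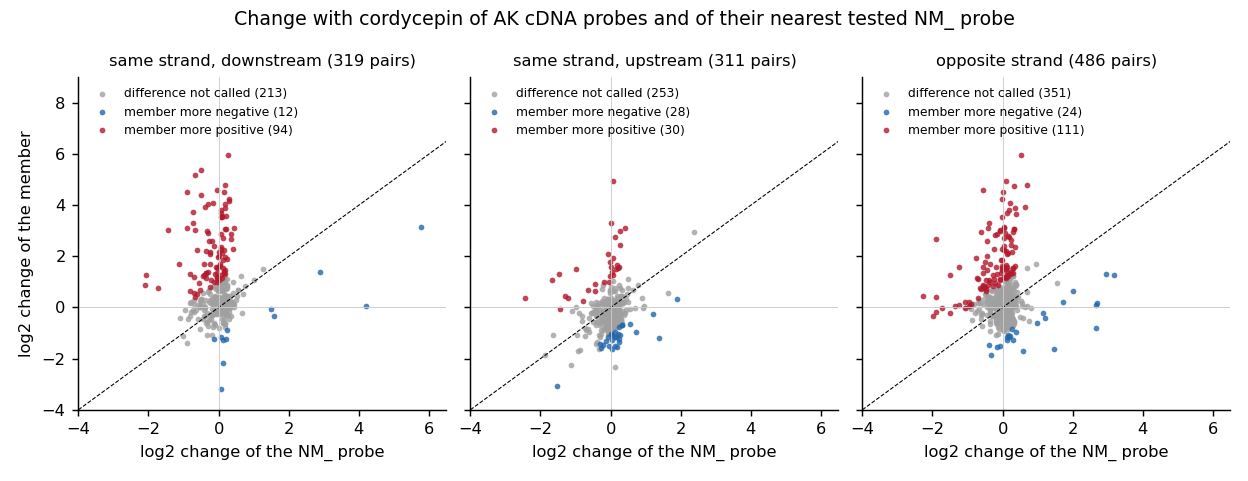
Log2 change with cordycepin of AK cDNA probes (y axis) against that of the nearest tested NM_ probe (x axis), by position. The dashed line marks equal change, and red and blue points are pairs whose difference was called (94 and 12 downstream, 30 and 28 upstream, 111 and 24 opposite). Downstream and opposite members spread upward over neighbours that stay near 0.

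The 4 largest differences of each position class were taken from pairs with both probes well above background on every cordycepin and serum array. Downstream and upstream all 4 were positive, and on the opposite strand they came in both senses. 2900035I09Rik (chr7:30675282-30675341, minus strand), about 3.1 kb downstream of the zinc finger gene Zfp27, changed by 1.27 ± 0.27 (SE, limma adjusted p = 0.0119) while Zfp27 changed by -2.06 (limma adjusted p = 1.46e-04), a difference of 3.33 ± 0.25 (SE, limma adjusted p = 3.38e-05). The difference was 3.72 ± 0.21 (SE, limma adjusted p = 1.21e-05) for A030005L19Rik and Agfg1, 3.48 ± 0.26 (SE, limma adjusted p = 3.43e-05) for 5930422O12Rik and Purg, and 3.31 ± 0.28 (SE, limma adjusted p = 5.48e-05) for 4732460I02Rik and Rbmx. Upstream, AK172642 (chr16:13674141-13674200, plus strand) and 3110001I22Rik moved apart, by 1.31 and -1.48 (limma adjusted p = 5.00e-05), a difference of 2.79 ± 0.22 (SE, limma adjusted p = 4.11e-05). For 6430531B16Rik and the NM_ probe of that symbol it was 2.70 ± 0.33 (SE, limma adjusted p = 3.76e-04). The calls of the changes of 2900035I09Rik and AK172642 themselves were lost with spike-in centring (1.20 and 1.24), and that of 2900035I09Rik with normexp correction (0.68). The probe of 2900035I09Rik shares a 16-base run with 1 probe of another locus in the same sense. C230006B20 (chr2:130224621-130224680, minus strand) exceeded Cpxm1 by 1.79 ± 0.34 (SE, limma adjusted p = 0.00353). Opposite to Ube2n, a ubiquitin-conjugating enzyme that changed by 1.46 (limma adjusted p = 9.89e-04), C81189 differed by -3.10 ± 0.28 (SE, limma adjusted p = 5.24e-05). The AK probe of Antxr1 (chr6:87108062-87108121, minus strand), at -0.81 not called, differed from the opposite gene D6Ertd527e by -3.47 ± 0.43 (SE, limma adjusted p = 2.87e-04). The difference was 3.07 ± 0.33 (SE, limma adjusted p = 1.28e-04) between 6430531B16Rik and Utf1 and 3.04 ± 0.21 (SE, limma adjusted p = 1.45e-05) between Gm12472 and Gba2.

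The serum response itself was examined by setting the serum arrays against those without serum. Few members changed, and more fell than rose. Serum raised 15 of 1153 members (1.30%) and lowered 47 (4.08%), against 0.849% and 0.878% of all probes. NM_ probes were raised in 0.782% and lowered in 0.0615%, and lincRNA probes in 1.06% and 2.43%. The median change was -0.11 over the members and -0.02 over all probes. Among the 47 members lowered, 45 lay below the median signal of all tested probes, and of all probes below it 1.65% were lowered. Of the same 47, 25 were well above background on every array of both groups. Another 9 were above it on no serum array and 13 on only some, so those entered the test through other arrays. The drops were 8 of 136 downstream members, 11 of 162 upstream and 15 of 314 opposite, which make 34 within 50 kb of an NM_ probe, 8 of 279 without one and 5 of 260 that carry the symbol of an NM_ probe. There were 14 drops without the first array without serum, 22 drops without the second and 12 with normexp background correction. Within 50 kb the 34 became 11, 15 and, without serum replicate 1, 22, and the 8 became 3, 5 and, without cordycepin replicate 2, 5. The rises numbered 6 without the second array without serum. Rises made up 24.2% of the calls, 9.52% with spike-in centring and 52% with normexp correction.

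The largest rise with serum was that of E330037I15Rik, 31.4 kb upstream of Actr6, an actin-related nuclear protein. It had 1.80, 1.53 and 2.05 on the serum arrays, 1.84, 1.49 and 1.87 on the cordycepin arrays and -2.30 and -2.50 without serum. The serum and cordycepin arrays overlapped, and both lay far above the arrays without serum. The change with serum was 4.19 ± 0.19 (SE, limma adjusted p = 6.45e-05) and that with cordycepin -0.06 ± 0.17 (SE, limma adjusted p = 0.827), while Actr6 changed by 0.00 (limma adjusted p = 1.000) with serum. Ptchd4 rose by 2.34 ± 0.18 (SE, limma adjusted p = 8.37e-04) with serum, from -1.10 and -1.22 to 1.46, 1.14 and 0.95, and had -0.38, -0.21 and -0.62 with cordycepin. As given above, its probe shares a run of bases with a probe of another locus. 3110068a07rik (chr14:32590289-32590348, minus strand) rose by 2.41 ± 0.38 (SE, limma adjusted p = 0.0180) and Gm7967 (chr1:100490826-100490885, plus strand) by 1.65 ± 0.29 (SE, limma adjusted p = 0.0302). Each of these 2 lost its call in part of the fits without 1 array, 3110068a07rik without either array without serum (2.52 and 2.31) and Gm7967 without cordycepin replicate 1 or 2 (1.65 each), serum replicate 1 (1.73) or 3 (1.44), or the second array without serum (1.29). C130033p17rik and Gm17501 complete the 6 largest rises.

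Among the 6 largest drops with serum, 8030453O22Rik (chr6:39479434-39479493, minus strand) had -1.88, -1.81 and -1.60 on the serum arrays, -3.33, -3.37 and -3.06 on the cordycepin arrays and 0.15 and -0.30 without serum. It changed from no serum to serum by -1.69 ± 0.18 (SE, limma adjusted p = 0.00299) and again with cordycepin by -1.49 ± 0.16 (SE, limma adjusted p = 3.41e-04). C530043K16Rik (chr5:66983705-66983764, minus strand) changed by -2.01 ± 0.18 (SE, limma adjusted p = 0.00166) with serum and 2810455B08Rik (chr16:31173772-31173831, minus strand) by -1.71 ± 0.19 (SE, limma adjusted p = 0.00402). The probe of C530043K16Rik shares a 16-base run with 1 probe of another locus in the same sense. The AK probe of Sipa1l2 (chr8:128040832-128040891, minus strand), a GTPase-activating protein, changed by -1.87 ± 0.22 (SE, limma adjusted p = 0.00557). BC055308 (chr1:97227735-97227794, plus strand) and A930026B05Rik (chr6:72325924-72325983, minus strand), upstream of Fam174a and Vamp5, changed by -1.78 ± 0.21 (SE, limma adjusted p = 0.00578) and -1.76 ± 0.20 (SE, limma adjusted p = 0.00459). The calls of Sipa1l2 and BC055308 were lost without the first array without serum, at -1.79 and -1.67. With spike-in centring the rises of Ptchd4, 3110068a07rik, Gm17501 and Gm7967 (2.00, 2.07, 1.97 and 1.30) and the drops of BC055308, A930026B05Rik, 2810455B08Rik and 8030453O22Rik (-2.13, -2.11, -2.06 and -2.03) were no longer called. None of the 6 rises and 6 drops with serum was called from the arrays of the second row of the slide alone, which hold 1 array without serum.

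Members beside serum response genes were looked at as a group. Of the listed genes, 6 had a tested member within 50 kb, and 2 of these members were called with serum. 4930447I22Rik lies 0.954 kb upstream of the probe of Ier2, an immediate early gene, on its strand. It had -3.62, -3.88 and -3.77 on the serum arrays, -2.44, -2.84 and -2.79 on the cordycepin arrays and -6.01 and -5.73 without serum. Neither array without serum was above background, and the cordycepin arrays lay above the serum arrays. It rose at least 4.02-fold with serum (limma adjusted p = 8.63e-04) and by 1.07 ± 0.15 (SE, limma adjusted p = 0.00145) more with cordycepin. Ier2 had 1.13 and 1.09 without serum, 3.81, 3.72 and 3.77 with serum and 1.89, 2.01 and 2.36 with cordycepin. It rose by 2.66 ± 0.15 (SE, limma adjusted p = 1.73e-04) with serum and changed by -1.68 ± 0.14 (SE, limma adjusted p = 9.28e-05) with cordycepin. The changes of member and gene with cordycepin differed by 2.75 ± 0.23 (SE, limma adjusted p = 5.37e-05). The call of 4930447I22Rik with cordycepin was lost without cordycepin replicate 1 (0.94), with quantile normalisation (0.83), with normexp correction (0.60) and with spike-in centring (1.00), and its call with serum with normexp correction (0.68) and spike-in centring (1.77).

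Gm17501 lies on the strand opposite to Cyr61, a matricellular protein gene of the serum response, 4.81 kb from its probe on the 5′ side. It had 0.93, 0.81 and 0.91 on the serum arrays, 0.58, 0.52 and 0.58 on the cordycepin arrays and -1.53 and -1.33 without serum. It rose by 2.31 ± 0.12 (SE, limma adjusted p = 1.04e-04) with serum, and the cordycepin arrays lay below the serum arrays by 0.32 at an adjusted p of 0.0666, not called. Cyr61 had 4.51 and 4.82 without serum, 7.88, 7.92 and 7.56 with serum and 5.82, 5.94 and 5.65 with cordycepin. It rose by 3.12 ± 0.17 (SE, limma adjusted p = 1.26e-04) with serum and changed by -1.99 ± 0.15 (SE, limma adjusted p = 6.62e-05) with cordycepin. Both rose with serum, and their changes with cordycepin differed by 1.66 ± 0.20 (SE, limma adjusted p = 2.44e-04). The 60 bases of the Gm17501 probe are also those of a lincRNA probe on the array. In RefSeq on build GRCm38.p6 the 300-base promoter windows of Gm17501 and Cyr61, there named Ccn1, overlap by 191 bases on opposite strands. The window of Gm17501, from 250 bases before to 50 after its start, is printed because the windows of both transcripts overlap in it, with the bases shared with the Ccn1 window in capitals.
Gm17501 (GRCm38.p6, chr3:145649827-145650126, plus strand): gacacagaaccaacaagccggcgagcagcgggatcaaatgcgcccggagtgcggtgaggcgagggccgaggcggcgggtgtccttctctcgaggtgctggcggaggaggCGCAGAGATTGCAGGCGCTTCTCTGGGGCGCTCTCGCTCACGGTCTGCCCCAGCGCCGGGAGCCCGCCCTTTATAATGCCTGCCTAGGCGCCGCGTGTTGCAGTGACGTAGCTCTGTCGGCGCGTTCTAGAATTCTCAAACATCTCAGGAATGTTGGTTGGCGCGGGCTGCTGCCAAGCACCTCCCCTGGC
TATAAA was found in this window, read on both strands, as in 13.6% of windows. Neither the CArG box nor TGACGTCA was found on either strand. They occur in 1.63% and 1.79% of the 32851 windows of the table, and no match says only that these letters are not in this window.

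The other 4 members near serum response genes did not pass with serum. Ppp1r18os (chr17:35996610-35996669, minus strand), opposite to Ier3 and 37.1 kb away, with Mdc1 as its nearest NM_ probe, changed by 0.90 ± 0.17 (SE, limma adjusted p = 0.0408), short of the fold required. Ppp1r18os was well above background on no serum array, which limits its change with serum. It rose at least 2.44-fold with cordycepin (limma adjusted p = 2.51e-04), while Ier3 changed by -0.75 ± 0.12 (SE, limma adjusted p = 0.00253). That call of Ppp1r18os was lost with normexp correction (0.54) and spike-in centring (1.49). E330024J20Rik (chr5:91366620-91366679, plus strand), downstream of the chemokine genes Cxcl2, its nearest NM_ probe, and Cxcl1, changed by -0.45 ± 0.15 (SE, limma adjusted p = 0.282) with serum and by 0.98 ± 0.14 (SE, limma adjusted p = 0.00152) with cordycepin, while Cxcl1 changed by 2.64 ± 0.29 (SE, limma adjusted p = 0.00385) and -0.13 ± 0.26 (SE, limma adjusted p = 0.777). 1700049J03Rik (chr17:26691199-26691258, minus strand), upstream of Dusp1, a MAP kinase phosphatase, was above background on 2 arrays of each group and changed by -0.05 ± 0.34 (SE, limma adjusted p = 1.000) and 0.37 ± 0.31 (SE, limma adjusted p = 0.445). Dusp1 changed by 2.40 ± 0.23 (SE, limma adjusted p = 0.00177) and -2.44 ± 0.20 (SE, limma adjusted p = 1.03e-04). D030020J04Rik (chr2:56971224-56971283, minus strand), upstream of the nuclear receptor gene Nr4a2, changed by -0.13 ± 0.50 (SE, limma adjusted p = 1.000) and 0.70 ± 0.45 (SE, limma adjusted p = 0.324). Nr4a2 itself was not called, at 0.69 ± 0.38 (SE, limma adjusted p = 0.705) with serum and 0.65 ± 0.34 (SE, limma adjusted p = 0.227) with cordycepin. E330024J20Rik was called higher with cordycepin without cordycepin replicate 2 (1.03) or serum replicate 1 (1.09), and Ppp1r18os was called higher with serum without the first array without serum (1.15).

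**Figure D5:**
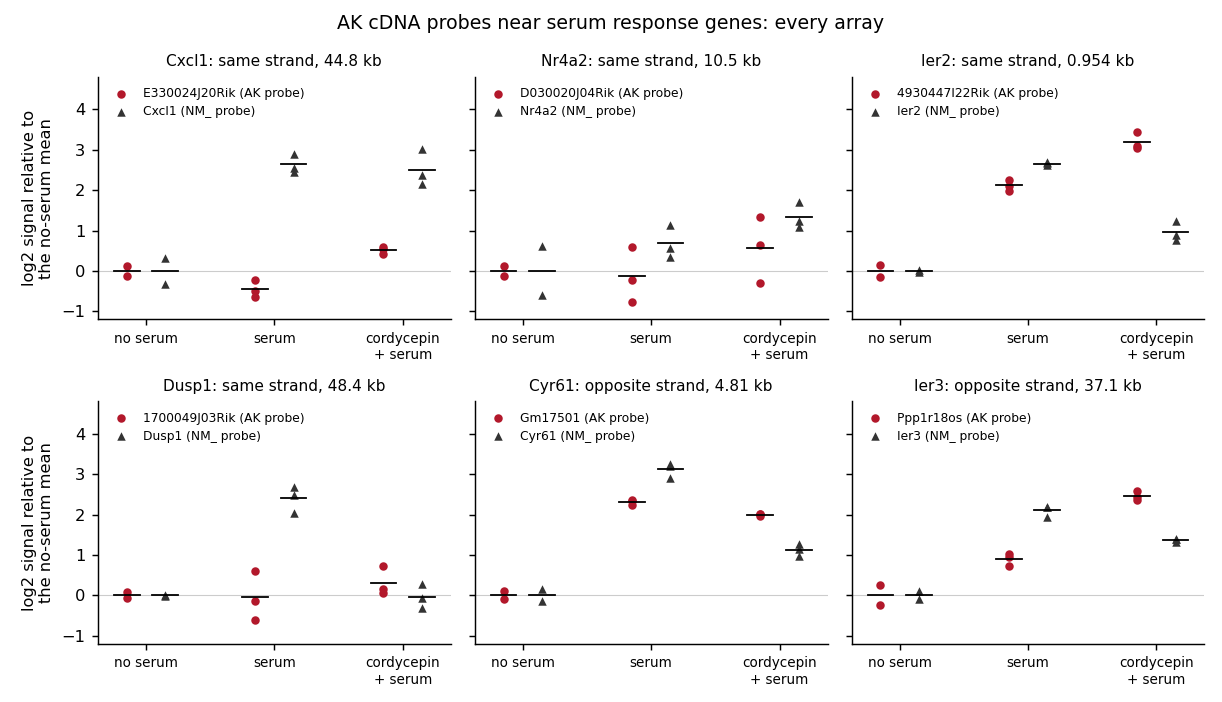
Signal on each array relative to the mean of the arrays without serum of the same probe (log2) for 6 AK cDNA probes (red circles) and the serum response gene within 50 kb (black triangles). Bars are group means. With cordycepin Ier2, Dusp1, Cyr61 and Ier3 lie below their serum arrays, 4930447I22Rik and Ppp1r18os lie above theirs, and Gm17501 lies 0.32 below its serum arrays, which was not called.

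Against the arrays without serum, cordycepin plus serum gave 112 members higher (9.71%) and 120 lower (10.4%), beside 6.48% and 2.99% of all probes. This comparison shares its arrays with the other 2, so each is given by its own values. Of the 112 members higher, 29 were above background on neither array without serum and 10 on only some. Of the 120 lower, 13 were above background on no cordycepin array and 16 on only some. Those members entered the test through other arrays. By position, 28 of 136 (20.6%) downstream and 48 of 314 (15.3%) opposite members were higher, and 35 of 162 (21.6%) upstream members and 45 of 279 (16.1%) of those without a neighbour were lower. Of the 10 largest rises with cordycepin, 5930422O12Rik changed by 2.70 (limma adjusted p = 3.45e-04) against no serum and 4632433K11Rik by 2.41 (3.53e-05). Gm10387 changed by -3.30 (5.34e-05), and C130033p17rik, low in both groups, by 0.45 (0.367). 4930447I22Rik rose at least 8.42-fold against no serum (limma adjusted p = 3.40e-05). Without the first array without serum, 69 members were lower in place of 120.

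Genes of RNA decay and 3′ end formation, many of whose products act on RNAs from outside coding genes, were examined as a list. Of 54 listed symbols, 49 were on the array, each read from its probe with the highest mean signal. All 49 were well above background on every array, and 1 was called higher and 1 lower with cordycepin. Over all probes 7.63% were higher and 2.87% lower, and of NM_ probes 3.54% and 2.45%. NM_ probes above the median signal were higher in 0.674% and lower in 2.26%. The median change was 0.03 over the list and 0.10 over all probes. Papolg, a nuclear poly(A) polymerase, changed by -2.30 ± 0.16 (SE, limma adjusted p = 5.46e-05). Ints6, a subunit of the Integrator complex, changed by 1.30 ± 0.36 (SE, limma adjusted p = 0.0410). It was dim, with -3.96, -4.89 and -5.28 on the serum arrays. The lowest signals well above background on those arrays were -5.97, -5.01 and -5.54. Zfc3h1, which links nuclear poly(A) RNA to the exosome, changed by 0.81 and the exosome subunits Exosc6 and Exosc3 by 0.76 and -0.64, under the fold required, and these last 3 were chosen after their values were seen.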

How the data were processed

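RNA of 8 NIH3T3 cultures was hybridised by the authors to Agilent one-colour arrays on 1 slide, and intensities were extracted with Agilent Feature Extraction 10.7.3.1 per the file headers. The deposited intensity per spot is Agilent's processed signal, already background-corrected. The alternative normexp fit used the deposited mean and background intensities. Control spots and outlier spots were left out, spots of a probe were averaged, and log2 of the signal minus the array's 75th percentile (350 to 802 intensity units) was tested with limma 3.58.1 in R 4.3.3, over all 8 arrays with group means. The number of arrays limits the precision. P-values were adjusted by Benjamini-Hochberg over 30859 probes, and a call needed an adjusted p under 0.05 and a log2 change of at least 1. The procedure was tested on simulated data. Differences of a member and its neighbour were fitted the same way, over all tested probes without an NM_ accession. Arrays of a group agreed at r of at least 0.99. Per the methods the samples were independent cultures, and 2 arrays without serum were analysed here.

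Named members were the 10 largest rises and drops with cordycepin and the 6 with serum among called members above background on every array compared and with arrays that do not overlap, the 4 largest bounds each way, all tested members within 50 kb of a listed serum response gene, and the largest pair differences. The members, the position classes and the lists were chosen with earlier results of these data known. Alternatives were normexp correction, quantile normalisation, spike-in centring, other filters, thresholds and distances, the replicate number or slide row as a block, and each array left out. Promoter windows are from RefSeq on GRCm38.p6 and were matched by symbol, while probe positions are on mm9, and no position was converted between builds. A count of members that share a downstream neighbour is not reported here.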

Additional observations from a re-analysis of the deposited data

How the results depend on the processing

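The counts below are given against the reported ones. With normexp background correction the members higher and lower were 68 and 28 with cordycepin (reported 175 and 84), 12 lower with serum (47), and 61 and 44 when the cordycepin arrays were set against those without serum (112 and 120). By position normexp gave 22 downstream and 28 opposite members higher (40 and 75) and 7 upstream and 9 without a neighbour lower (22 and 29), and with serum 4 lower within 50 kb and 5 without a neighbour (34 and 8). Pairs more positive and more negative were 60 and 20 on the same strand (124 and 40) and 55 and 7 on the opposite strand (111 and 24). Spike-in centring gave 95 and 28 with cordycepin, 2 and 19 with serum (15 and 47), and 51 and 76 against no serum. It moved the median of all probes by -0.36 with serum, and members are read relative to that. Quantile normalisation gave 49 lower without a neighbour with cordycepin and 5 with serum, and 61 more negative same-strand pairs. Testing only probes above background on all 8 arrays gave 85 higher with cordycepin, 27 lower with serum and 53 higher against no serum, 17 downstream and 35 opposite members higher, and 62, 60 and 14 pairs (same strand more positive, opposite strand more positive and more negative), the position and pair counts being added after the data were seen. With no filter serum gave 6 higher and 16 lower. The first slide row alone gave 6 and 21 with serum, and the second row alone, with 1 array without serum, 0 and 0 with serum, 89 and 27 with cordycepin, and 40 and 17 against no serum. Unadjusted p-values under 0.05 gave 24 higher and 96 lower with serum, and no minimum fold change gave 167 lower with cordycepin. A limit of 10 kb gave 26 downstream and 45 opposite higher, 2 upstream and 56 without a neighbour lower, 20 and 22 lower with serum, and 57 and 7 same-strand and 47 and 7 opposite-strand pairs. A limit of 100 kb gave 16 and, with serum, 4 lower without a neighbour, and 63 more negative same-strand pairs. The causes were not tested.

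Leaving out 1 array at a time gave 156 to 179 higher and 65 to 88 lower with cordycepin, 6 to 16 and 14 to 54 with serum, 93 to 116 and 69 to 124 against no serum, 38 to 42 downstream and 67 to 78 opposite higher, 16 to 25 upstream and 20 to 34 without a neighbour lower, and with serum 11 to 36 lower within 50 kb and 3 to 10 without a neighbour. Pairs ranged over 115 to 130 and 34 to 50 on the same strand and 94 to 126 and 23 to 29 on the opposite strand. Deviations from the group means of same-numbered arrays correlated at -0.17 to 0.23, and those of differently numbered arrays of different groups at -0.32 to 0.32. Deviations from means of so few arrays depend on each other, so whether replicate numbers pair the samples cannot be settled by them. With the replicate block there were 170 and 83 calls with cordycepin, 17 and 49 with serum and 111 and 128 against no serum, and no count given here moved by over 1.5 times under the block. Of 1080 refits of 55 named values, 991 kept direction and side of the threshold, 75 lost and 6 gained it, and 8 reversed. The reversals were all of changes with serum that were not called. E330024J20Rik was at 0.002327 with normexp correction. D030020J04Rik was at 0.13 with normexp correction and 0.0456 in the second row alone, and ranged from -0.50 to 0.18 with 1 array left out, being positive without serum replicate 2. 1700049J03Rik was at 0.17 with normexp correction, 0.0616 with quantile normalisation, and ranged from -0.38 to 0.23, being positive without serum replicate 2 (0.23) and without the second array without serum (0.02). Changes of probes that one group did not measure above background are limited by that background.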

Other observations

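Members matched by symbol to RefSeq genes differed in their calls with cordycepin. Of 168 tested members of lncRNA genes, 30 were higher (17.9%) and 3 lower (1.79%), and of 293 of protein-coding genes 27 were higher (9.22%) and 21 lower (7.17%). Of the 669 tested members without a match, 112 were higher (16.7%) and 58 lower (8.67%). Over all probes 7.63% were higher and 2.87% lower. Clones of the adult male testis library were higher in 20 of 111 (18%) and lower in 2. Members whose products are called unclassifiable were higher in 101 of 584 (17.3%), and those with a named or similar protein in 25 of 205 (12.2%). A poly(A) signal hexamer was present in the probes of 31.6% of tested downstream members, 14.2% of upstream members and 22.6% of opposite members. Members with it were higher in 40 of 230 (17.4%) and those without in 135 of 923 (14.6%). These shares are descriptions with no test between them.

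Among 24 tested members whose RefSeq promoter window lies head to head with that of a protein-coding gene, 4 were higher with cordycepin (16.7%) and 0 lower in limma. C130036L24Rik, beside the nucleolin gene Ncl, changed by 2.13 (limma adjusted p = 5.95e-04), D330023K18Rik beside Gpr107 by 1.18, C030037D09Rik beside Msi2 by 1.11 and 4930599N23Rik beside Parp12 by 1.06. Of the 124 other tested members with a promoter window, 18 were higher (14.5%) and 4 lower, and of all tested members 15.2% were higher, so the head-to-head share is near the others. Over all probes 7.63% were higher.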
